A study of Mus musculus with 12 samples.

Results

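Tctex1d4, Plk3, Bricd5 and Mlst8 are 4 of the 48709 genes in the count table and form 2 pairs whose annotated exons overlap on opposite strands. Tctex1d4 and Bricd5 were chosen by their adjusted p-values in an earlier reading of these data, which were among the smallest in both comparisons with the control spleen, and Plk3 and Mlst8 were taken in as their opposite-strand partners. Their differences from the spleen are therefore given as description, with ranks and calls that are not read as tests. The 4 genes are tested only between the liver groups, which the choice did not use. All 4 were among the 12488 genes that passed the filter on low counts. The RNA came from neutrophils of young adult male C57BL/6N mice, sorted as CD45+ CD11b+ cells with high Ly6G and intermediate Ly6C. Control splenic neutrophils came from untreated mice (n = 3). The 24-hour neutrophils (n = 4) and the 72-hour neutrophils (n = 5) came from livers taken that long after 1 intraperitoneal injection of carbon tetrachloride (CCl4) in corn oil, a solvent that injures hepatocytes. No vehicle-injected liver was among the groups, so organ and injury changed together and cannot be told apart, and in sorted bulk RNA a shift in the mix of cells and a shift per cell cannot be told apart either.

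The 4 genes have unrelated known roles. Plk3 encodes a polo-like kinase, a serine/threonine kinase of the stress and DNA damage response whose transcript is known as an immediate early gene, induced quickly by growth factors and stress. Tctex1d4 encodes a protein of the Tctex1 family of dynein light chains, which link the dynein motor to cargo. Mlst8 encodes a WD-repeat subunit present in both mTOR complexes, the kinase assemblies that tie growth and metabolism to nutrients and growth factors. Bricd5 encodes a protein with a BRICHOS domain, a chaperone-like domain found in several secreted precursors.

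The libraries held between 1267089 and 3017403 reads on genes. Levels are given in CPM, reads scaled to a common library size, and 1 CPM stood for 1 to 3 reads. Intervals on counts cover counting error only. In 72-hour replicates 2 and 3 just 1.91% and 1.98% of reads were unaligned, against 49.6% to 50.7% elsewhere, so results that lean on these libraries are given with and without them. Of the listed neutrophil markers, 10 of 10 had counts in spleen and in 72-hour libraries. In 24-hour libraries 9 of 10 had counts, with Camp at 0. Their levels differed widely over the libraries, from 1.04 to 37.7 CPM for Ly6g, used in the sort, to 215 to 3969 CPM for S100a9. Summed markers of other cells reached at most 18.9 CPM for hepatocytes, 21.4 for macrophages, 61.2 for B cells, 7.07 for T cells, 5.84 for erythroid cells and 19.0 for endothelial cells. Of the markers of immature neutrophils, Mpo and Elane were at 0 in spleen and 24-hour libraries, and the summed list (675 to 2010.4 CPM in the spleen) was nearly all Mki67. The kit kept the strand of the RNA, and the strand setting used for counting is not given in the sources used here. Genes that share exon bases with an opposite-strand gene were 17.6% of the matched genes and carried 85.0% of the gene counts. Each of the 20 genes with the most counts was among them. All levels, those of markers and of listed genes included, are given under the gene name of the count table. Which strand the reads behind them came from was not tested.

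In the GENCODE annotation of GRCm38, Tctex1d4 (ENSMUSG00000047671) lies at chr4:117126794-117128738 on the plus strand and Plk3 (ENSMUSG00000028680) at chr4:117128655-117133963 on the minus strand. The pair meets tail to tail. Only 84 bases are exonic in both, which is 7.56% of the 1111 exon bases of Tctex1d4 and 3.32% of the 2531 exon bases of Plk3, and no coding base of either gene is shared. Bricd5 (ENSMUSG00000045744) at chr17:24473884-24475469 on the plus strand is placed differently. Its whole span lies within Mlst8 (ENSMUSG00000024142), at chr17:24473551-24479078 on the minus strand, and 100% of its 997 exon bases are covered by the long noncoding 3′ part of Mlst8. These bases make up 22.5% of the 4435 exon bases of Mlst8, and include all 522 coding bases of Bricd5 and no coding base of Mlst8. An unspliced read inside Bricd5 exons is thus told from a read of Mlst8 by its strand alone. A read spliced over a Bricd5 intron could also be told apart by its splicing, which gene counts do not show. By contrast, 1027 exon bases of Tctex1d4 and 2447 of Plk3 belong to 1 gene only.

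**Figure D1:**
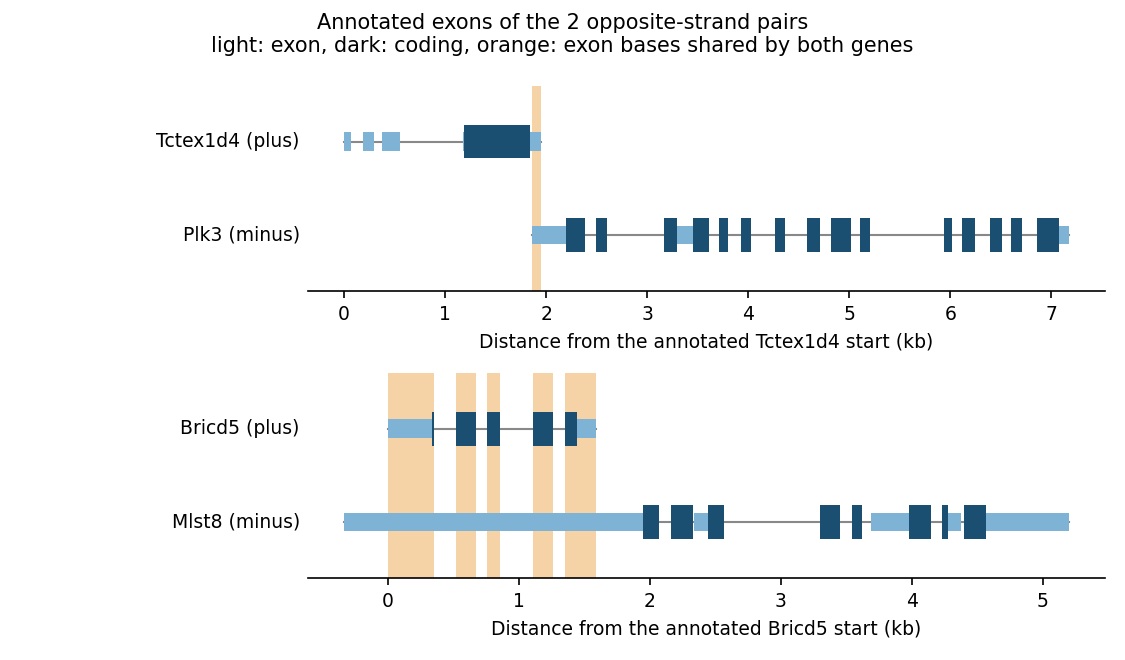
Annotated exons of both pairs against the distance in kb from the annotated start of Tctex1d4 (top) and of Bricd5 (bottom), with exons in light blue, coding sequence in dark blue and exon bases shared by both genes in orange. The shared part is a narrow strip of 84 bases in the first pair and all 997 exon bases of Bricd5 in the second.

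Since Tctex1d4 and Plk3 were high and low in the same groups, the 250 bases before their RefSeq starts (GRCm38.p6) are shown to let the promoters of a pair that meets at its tails be compared, with that of Mlst8 beside them. The window before Bricd5 lies inside the last exon of Mlst8 and is not shown. Capitals mark matches to a searched motif. The Plk3 window is chr4:117133964-117134213 (minus strand), that of Tctex1d4 chr4:117126563-117126812 (plus strand) and that of Mlst8 chr17:24479079-24479328 (minus strand).
Plk3: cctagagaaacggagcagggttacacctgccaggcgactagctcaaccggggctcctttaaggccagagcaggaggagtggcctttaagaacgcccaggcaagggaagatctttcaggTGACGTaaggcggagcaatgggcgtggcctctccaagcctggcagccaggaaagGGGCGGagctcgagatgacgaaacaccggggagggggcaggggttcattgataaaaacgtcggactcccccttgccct
Tctex1d4: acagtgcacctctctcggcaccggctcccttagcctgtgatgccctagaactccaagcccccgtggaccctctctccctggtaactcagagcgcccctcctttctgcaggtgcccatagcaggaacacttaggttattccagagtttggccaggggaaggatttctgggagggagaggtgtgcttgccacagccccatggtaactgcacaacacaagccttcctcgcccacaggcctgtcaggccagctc
Mlst8: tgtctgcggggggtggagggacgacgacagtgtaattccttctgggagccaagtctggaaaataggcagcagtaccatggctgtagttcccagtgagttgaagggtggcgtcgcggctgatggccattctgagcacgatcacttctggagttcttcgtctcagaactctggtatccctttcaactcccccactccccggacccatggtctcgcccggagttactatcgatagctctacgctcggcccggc
The Plk3 window held 1 match to TGACGT, the core of a CRE site, and 1 match to the GC box GGGCGG. On either strand, TGACGT was found in 6.47% and GGGCGG in 32.7% of 32851 RefSeq windows of this length. The windows of Tctex1d4 and Mlst8 held none of the 5 motifs searched on both strands, which also included CACGTG (6.02% of windows), CCAAT (33.9%) and TATAAA (12.4%). The 2 matches in the Plk3 window do not overlap.

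Tctex1d4 was low in the spleen and high in every liver library. Its level, in CPM after TMM scaling, was 26.4, 22.5 and 25.1 in the 3 control splenic libraries. It was 286, 413, 686 and 632 in the 24-hour libraries and 570.4, 568, 675, 314 and 585 in the 72-hour libraries. The lowest liver library lay far above the highest splenic one, while the ranges of both liver groups overlapped almost completely. The means were 24.7 ± 2.02 (SD, n = 3), 504 ± 187 (n = 4) and 543 ± 135 (n = 5), so that the liver groups varied much more among themselves than the splenic libraries did.

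Plk3, on the other strand, followed the same order of groups at a lower level. It stood at 1.39, 6.52 and 3.22 CPM in control splenic neutrophils, which rest on 3, 18 and 10 reads. The 24-hour libraries had 22.7, 51.6, 72.8 and 73.7 CPM. The 72-hour libraries had 98.7, 151, 207, 41.0 and 77.2 CPM. No liver library fell into the splenic range, and 4 of the 5 72-hour libraries were above every 24-hour library. Both of the highest values came from 72-hour replicates 2 and 3, the libraries with few unaligned reads, and the part of that difference in the result was not tested. Per kb of exon, Tctex1d4 exceeded Plk3 in each group, at 22.2 against 1.47 CPM per kb in the spleen, 454 against 21.8 at 24 hours and 488 against 45.5 at 72 hours.

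Bricd5 showed the reverse pattern, high in the spleen and low in the liver. Control splenic neutrophils held 1047, 1008 and 271 CPM. The 24-hour libraries held 15.8, 19.8, 13.4 and 43.8 CPM and the 72-hour libraries 31.4, 28.3, 26.0, 29.9 and 35.7 CPM. The splenic libraries were all above the liver libraries but were split, with replicate 3 well below the other two. The same library was low in several marker genes of neutrophils, picked out here after their values were seen. Ngp, a granule protein of immature neutrophils, stood at 339 CPM in splenic replicate 3 against 1895 and 1891 in replicates 1 and 2. Camp, the cathelicidin of the same granules, stood at 8.04 against 170 and 175 CPM, and S100a8, a calcium-binding protein of the cytosol, at 80.1 against 1308 and 1372 CPM. S100a9, the partner of S100a8, stood at 339 against 3937 and 3969 CPM. Other listed markers went the other way in that library, with the proliferation gene Mki67 at 2008 against 674 and 702 CPM and Prtn3, a protease of immature neutrophils, at 2.57 against 0.464 and 1.09 CPM. In the liver Ngp ranged from 2.48 to 53.0 CPM and Camp from 0 to 2.08 CPM, below splenic replicate 3. S100a8 in the liver ranged from 59.8 to 366 CPM and S100a9 from 215 to 866 CPM. These ranges take in splenic replicate 3, unlike that of Bricd5. Within the spleen, Bricd5 stood high and low in the same libraries as the picked Ngp, Camp, S100a8 and S100a9, and their part in the result was not tested. Values of the other listed neutrophil markers in splenic replicate 3 are not given here. The 72-hour libraries were close to one another, at 30.3 ± 3.64 CPM (SD, n = 5), and the 24-hour libraries at 23.2 ± 14.0 CPM (SD, n = 4).

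Mlst8 was close to the limit of detection outside the spleen. It had 20, 36 and 30 reads in control splenic neutrophils, or 9.28, 13.0 and 9.65 CPM. Of the 4 24-hour libraries 3 had 0 reads and replicate 4 had 4 reads (2.92 CPM). The 72-hour libraries had 8, 6, 5, 5 and 2 reads, or 4.34, 2.07, 1.55, 3.47 and 1.30 CPM. The splenic libraries were above all of the liver libraries, and splenic replicate 3 was not low for Mlst8 as it was for Bricd5. Per kb of exon, Bricd5 exceeded Mlst8 in each group, at 778 against 2.40 CPM per kb in the spleen, 23.3 against 0.164 at 24 hours and 30.4 against 0.574 at 72 hours.

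**Figure D2:**
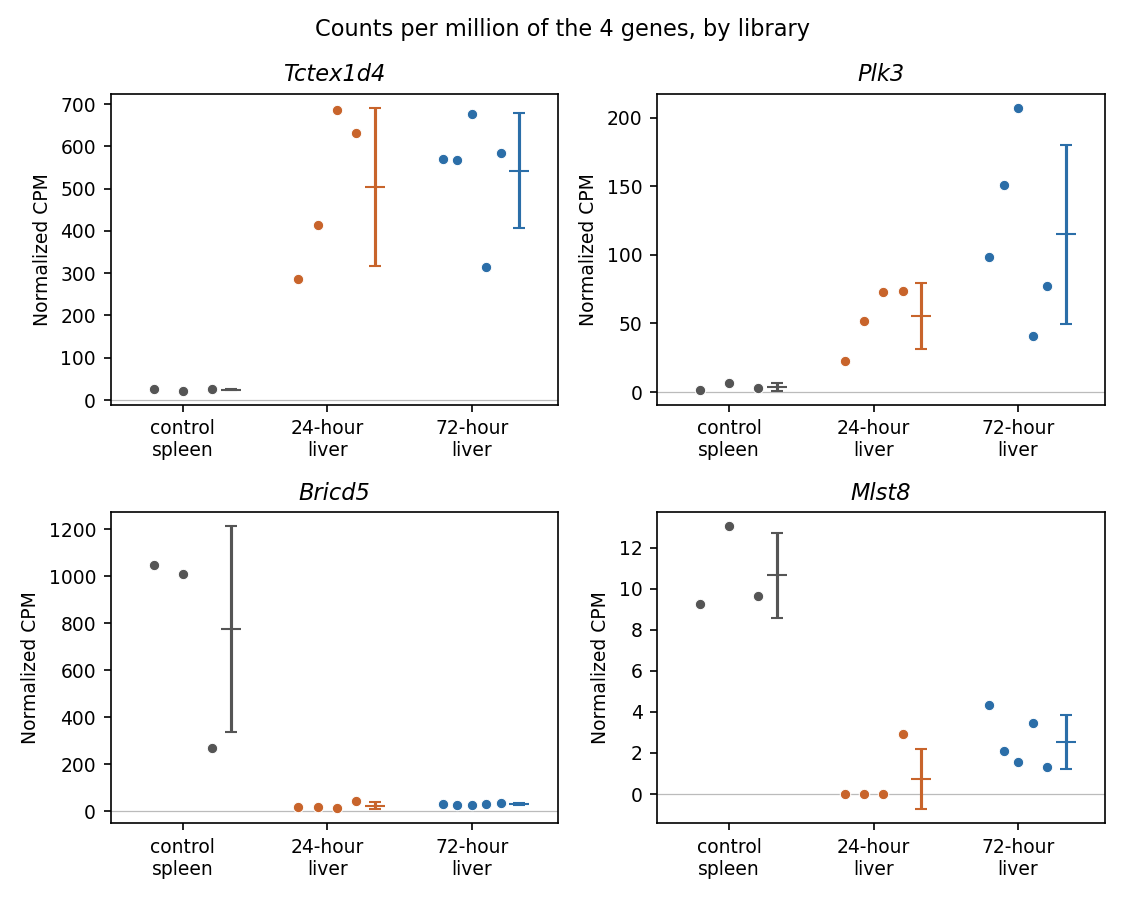
Level of each gene in normalized CPM (vertical axis, a separate linear scale per gene) by group; each point is 1 library, and the bars give the mean and SD. Tctex1d4 and Plk3 were above the spleen in all 9 liver libraries, and Bricd5 and Mlst8 were below it.

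The size of the differences from the spleen, which chose the members, was as follows. The log2 fold change of Tctex1d4 was 4.35 (SE 0.34) at 24 hours and 4.46 (SE 0.34) at 72 hours, or 20.4-fold and 22.0-fold. Plk3 stood at 3.84 (SE 0.57) and 4.91 (SE 0.57), or 14.3-fold and 30.0-fold. Both genes of this pair thus differed from the spleen in the same direction on strands that share few exon bases. For Bricd5 the log2 fold change was -5.07 (SE 0.42) at 24 hours and -4.68 (SE 0.37) at 72 hours, a level 33.5-fold and 25.7-fold lower. Mlst8 stood at -3.86 (SE 0.85) and -2.08 (SE 0.65). Pooled over libraries, 86 splenic Mlst8 reads against 4 at 24 hours gave a ratio of 16.2 (95% exact interval 6.09 to 60.7) after scaling, and 86 against 26 at 72 hours gave 4.51 (2.88 to 7.29). These intervals leave out the spread between libraries, so they are not compared with the fold of Bricd5. Both comparisons use the same 3 splenic libraries, so that they are not separate evidence. Ordered by adjusted p over 12488 genes, Tctex1d4 ranked 2 at 24 hours and 1 at 72 hours, Bricd5 5 and 3, Plk3 65 and 21, and Mlst8 372 and 772. A gene was called when the edgeR adjusted p was below 0.05 and the absolute log2 fold change at least 0.5. By that rule 4 of the 4 genes were called at 24 hours, where 9.75% of all tested genes were, and 3 of 4 at 72 hours, where 5.33% were. Mlst8 was the one not called at 72 hours, which depended on the setting, since its adjusted p was below 0.05 under 7 of 22 alternatives. The groups did not overlap for 4 of 4 genes in each comparison. Fully separated groups with the liver higher were found for 9.76% of all tested genes at 24 hours and 5.59% at 72 hours, and with the liver lower for 13.0% and 6.37%. These ranks, calls and counts follow from the choice of genes and nothing is read from them.

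Between the liver groups, none of the 4 genes passed the test. The edgeR quasi-likelihood test called 0 of the 4, with 1 of them at an unadjusted p below 0.05, and DESeq2 and limma-voom also called 0. It called 561 of 12488 tested genes (4.49%), of which 206 were higher and 355 lower at 72 hours. With library totals in place of TMM factors the split was 91.9% higher in place of 36.7%, so directions between the liver groups depend on the scaling. For 0 of the 4 genes did the liver groups separate fully, as they did for 9.51% of all tested genes. Tctex1d4 differed by 0.11 on the log2 scale (SE 0.24, edgeR adjusted p = 0.847). Plk3 was 1.07 higher at 72 hours (SE 0.40, edgeR adjusted p = 0.127), a difference that was 0.40 (edgeR adjusted p = 0.669) without 72-hour replicates 2 and 3. Plk3 passed the threshold with no filter on low counts (edgeR adjusted p = 0.00503), with library totals (edgeR adjusted p = 0.0200), and at an edgeR adjusted p of 0.0461 without 72-hour replicate 4, the lowest of that group. Bricd5 differed by 0.39 (SE 0.36, edgeR adjusted p = 0.575) and Mlst8 by 1.79 (SE 0.88, edgeR adjusted p = 0.250). For Mlst8 the 26 reads at 72 hours against 4 at 24 hours gave a pooled ratio of 3.58 (95% exact interval 1.24 to 14.1). That interval leaves out the spread between libraries. Without 24-hour replicate 4, the one library of its group with Mlst8 reads, the edgeR adjusted p was 0.0328, against a group with no Mlst8 read at all.

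The ratio of both genes within a library needs no scaling and asks whether a pair moved as 1 unit. Of every 100 Tctex1d4 reads, Plk3 had 5.26, 29.0 and 12.8 in the splenic libraries, 7.95, 12.5, 10.6 and 11.7 in the 24-hour libraries, and 17.3, 26.6, 30.7, 13.1 and 13.2 in the 72-hour libraries. Every 72-hour library had more Plk3 per Tctex1d4 read than every 24-hour library, and the splenic libraries, with 3 to 18 Plk3 reads, covered nearly the whole range. The log2 ratio of Tctex1d4 to Plk3 was 3.24 ± 0.28 (SD) over the 4 24-hour libraries and 2.40 ± 0.57 (SD) over the 5 72-hour libraries, a difference of -0.84 (SE 0.31, two-sided exact permutation p = 0.0159, the smallest that 126 assignments allow, and 0.0317 adjusted over the 2 pairs). Relative to Tctex1d4, Plk3 was thus 1.79-fold higher at 72 hours. Without 72-hour replicates 2 and 3 the difference was -0.45 (exact permutation p = 0.0571, the smallest that 7 libraries allow), and the 3 remaining 72-hour libraries were still below every 24-hour library.

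In the second pair, Mlst8 had 0.886, 1.29 and 3.56 reads per 100 Bricd5 reads in the splenic libraries. The 24-hour libraries had 0, 0, 0 and 6.67, and the 72-hour libraries 13.8, 7.32, 5.95, 11.6 and 3.64. The liver groups overlapped through 24-hour replicate 4. The log2 ratio of Bricd5 to Mlst8, with 0.5 added to each count, was 5.94 ± 1.03 (SD) over the 3 splenic libraries, 5.19 ± 1.01 (SD) over the 4 of 24 hours and 3.57 ± 0.69 (SD) over the 5 of 72 hours. The difference between the liver groups was -1.62 (SE 0.57, two-sided exact permutation p = 0.0476, also 0.0476 after adjustment over the 2 pairs). It depends on the libraries without Mlst8 reads, since adding 2 in place of 0.5 gave -0.44 (exact permutation p = 0.254), and leaving out any liver library other than 24-hour replicate 4 gave an exact permutation p of 0.0571 to 0.107.

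**Figure D3:**
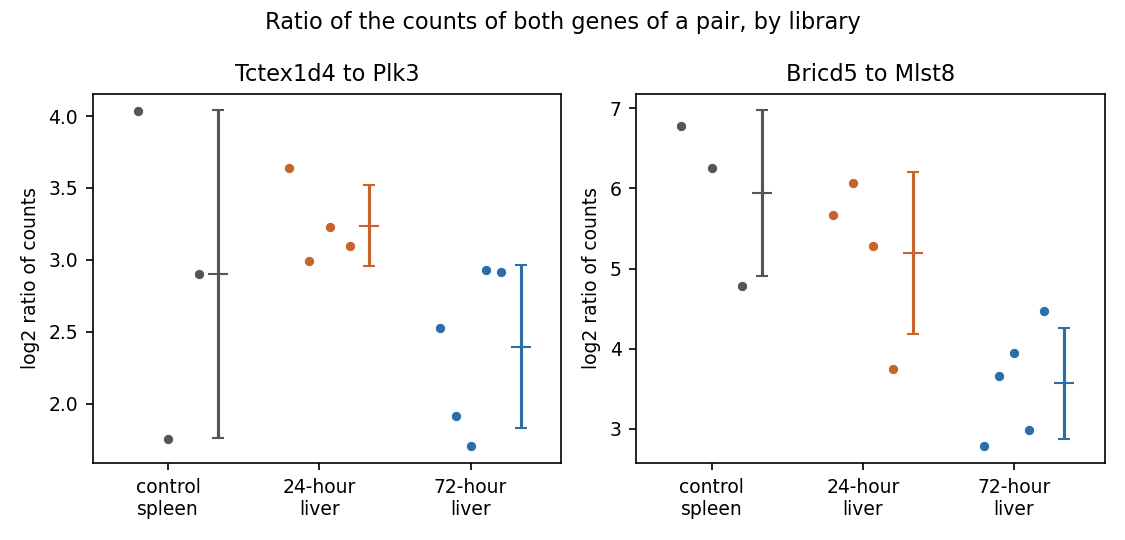
Log2 ratio of the read counts of Tctex1d4 to Plk3 (left) and of Bricd5 to Mlst8 (right), vertical axis, by group; each point is 1 library, and the bars give the mean and SD. On the left all 5 72-hour libraries lie below all 4 24-hour libraries; on the right 24-hour replicate 4 lies among the 72-hour libraries.

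Which transcript carries each difference can be stated only as far as the table separates strands. By read number, most of the signal of both loci was assigned to the plus-strand gene in every library, with Tctex1d4 and Plk3 at ranks 398 and 1544 of all genes by total counts and Bricd5 and Mlst8 at ranks 553 and 7053. Tctex1d4 had 5.16 times the reads of Plk3 over all libraries and Bricd5 54.7 times those of Mlst8, where the median over 2312 tested opposite-strand pairs was 7.56 times for the larger against the smaller gene. In Tctex1d4-Plk3 both genes were higher in the liver, and in Bricd5-Mlst8 both were lower. Bricd5 had up to 2782 reads although all of its exon bases are also exon bases of Mlst8 in this annotation, and between 0.0197% and 0.227% of uniquely aligned reads were ambiguous. Bricd5 is 1 of 452 genes wholly covered by exons of the other strand, of which 280 had at least 1 read and 142 at least 100. Over the table, 2.71% to 3.18% of uniquely aligned reads were counted on any gene, and genes with an opposite-strand partner held 85.0% of these counts. Tmem189 stood at 17399.5 ± 2226 CPM (SD, n = 4) at 24 hours, against 940.4 CPM for Cebpb opposite to it. A count here may therefore hold reads from the strand opposite to the gene it is listed under. Which of the genes of a pair was transcribed was not tested, for want of reads with their strand.

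Across the 12 libraries both genes of a pair were high and low together. Over log2 CPM, Pearson's r was 0.95 for Tctex1d4 and Plk3 and 0.86 for Bricd5 and Mlst8, with Spearman's rho at 0.80 and 0.86. Within the 9 liver libraries r was 0.82 and 0.84. The libraries share their grouping and their scaling, so these are descriptions. Among 12487 other genes, Plk3 was in place 12 by likeness to Tctex1d4 over the 12 libraries, in place 119 by Spearman's rho and in place 88 within the liver libraries. In the other direction Tctex1d4 was in places 9, 184 and 212 by likeness to Plk3. Mlst8 was in places 112, 30 and 49 for Bricd5, and Bricd5 in places 20, 26 and 76 for Mlst8. The values over all 12 libraries hold the difference from the spleen that chose the members.

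**Figure D4:**
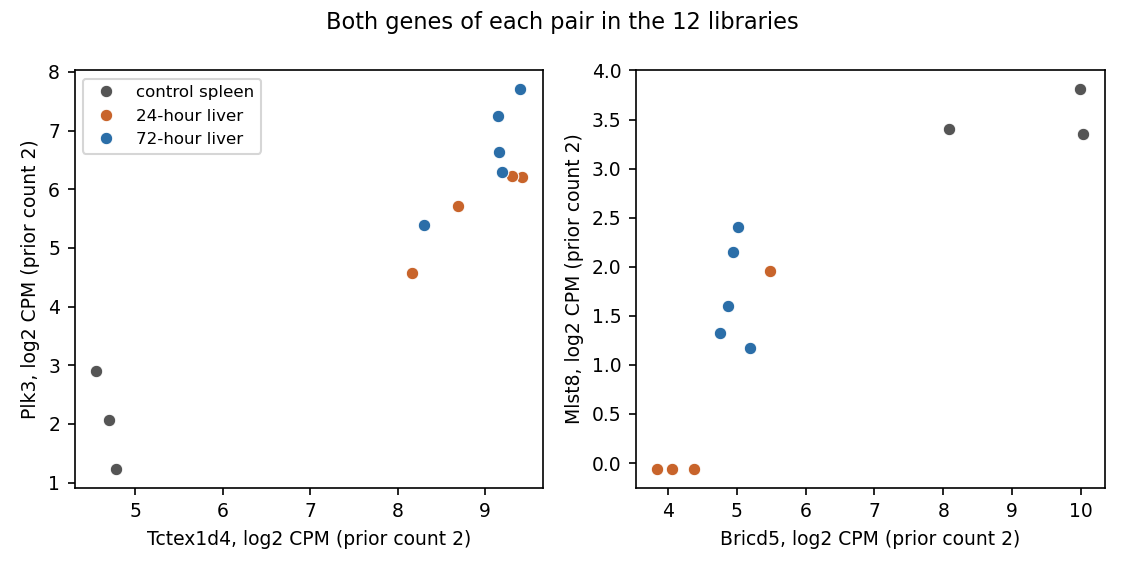
Log2 CPM (prior count 2) of Plk3 against Tctex1d4 (left) and of Mlst8 against Bricd5 (right); each point is 1 of the 12 libraries, coloured by group. The spleen stands apart from the liver in both panels, and the lowest row on the right holds the 3 24-hour libraries without an Mlst8 read.

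The genes with the pattern most like each member were named by r over the 12 libraries. For Tctex1d4 they were Cebpb (0.98), a transcription factor of emergency granulopoiesis, Cxcl2 (0.97), a neutrophil chemokine, and then Gm45244 (0.97), Kntc1 (0.96) and Tmem189 (0.96), whose exons overlap Cebpb on the opposite strand. Cebpb stood at 133 ± 4.53, 940.4 ± 141 and 921 ± 319 CPM in the spleen, at 24 and at 72 hours (SD, n = 3, 4 and 5). For Plk3 they were Junb (0.98), an AP-1 subunit, B430119L08Rik (0.97), Tulp2 (0.96), which overlaps the stress gene Ppp1r15a on the opposite strand, Hcar2 (0.96), a receptor for hydroxybutyrate and niacin, and Egr1 (0.96), an immediate early transcription factor. Junb stood at 201 ± 9.97, 530.2 ± 56.3 and 791 ± 243 CPM and Egr1 at 18.8 ± 3.86, 97.7 ± 33.1 and 127 ± 56.0 CPM in the same order of groups. Both were named for their likeness to Plk3 over these same libraries, so a shared order of groups follows from that choice and nothing is read from it. For Bricd5 the closest gene was Exosc9 (0.99), which overlaps the cyclin gene Ccna2 on the opposite strand. It had 87.2, 79.4 and 12.2 CPM in the splenic libraries, with replicate 3 low as for Bricd5, and at most 2.92 CPM in the liver. The next 4, Ica1, Cpa6, Nme6 and Fbxo27 (each 0.98), had 0 reads in all 9 liver libraries. For Mlst8 they were Kat5 (0.99), a histone acetyltransferase, Coq2 (0.91), Tbc1d8 (0.91), Smim22 (0.91) and Dvl1 (0.90). Of these 20 genes 10 share exon bases with an opposite-strand gene, namely 3 each of those named for Tctex1d4, Plk3 and Mlst8 and 1 for Bricd5, against 39.8% of all tested genes. Opposite genes not named above were Acsl1 for Gm45244, Prdx2 for Junb and Serpina1c for B430119L08Rik. For Kat5, Tbc1d8 and Dvl1 they were Rnaseh2c, Rpl31 and Tas1r3, and Tulp2 also overlaps Dhdh and Gm45808.

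Genes within 50 kb show how far the differences reached along the chromosome. Beside Tctex1d4-Plk3, Btbd19, 1069 bases away, had log2 fold changes of 1.29 (SE 0.45, edgeR adjusted p = 0.0744) at 24 hours and 1.15 (SE 0.43, edgeR adjusted p = 0.141) at 72 hours, neither past the threshold. Around Bricd5-Mlst8 there were 11 genes, 6 of them past the filter. Of these edgeR called 0 in each of the 3 comparisons, where it called 9.75%, 5.33% and 4.49% of all tested genes. At an unadjusted p below 0.05 there were 2, 2 and 1, and DESeq2 and limma-voom called 0. The nearest, Pgp, 441 bases away, had log2 fold changes of -0.95 (SE 0.61, edgeR adjusted p = 0.338) at 24 hours and -1.25 (SE 0.57, edgeR adjusted p = 0.255) at 72 hours. E4f1 stood at -1.36 (SE 0.46, edgeR adjusted p = 0.0645) at 24 hours.

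**Figure D5:**
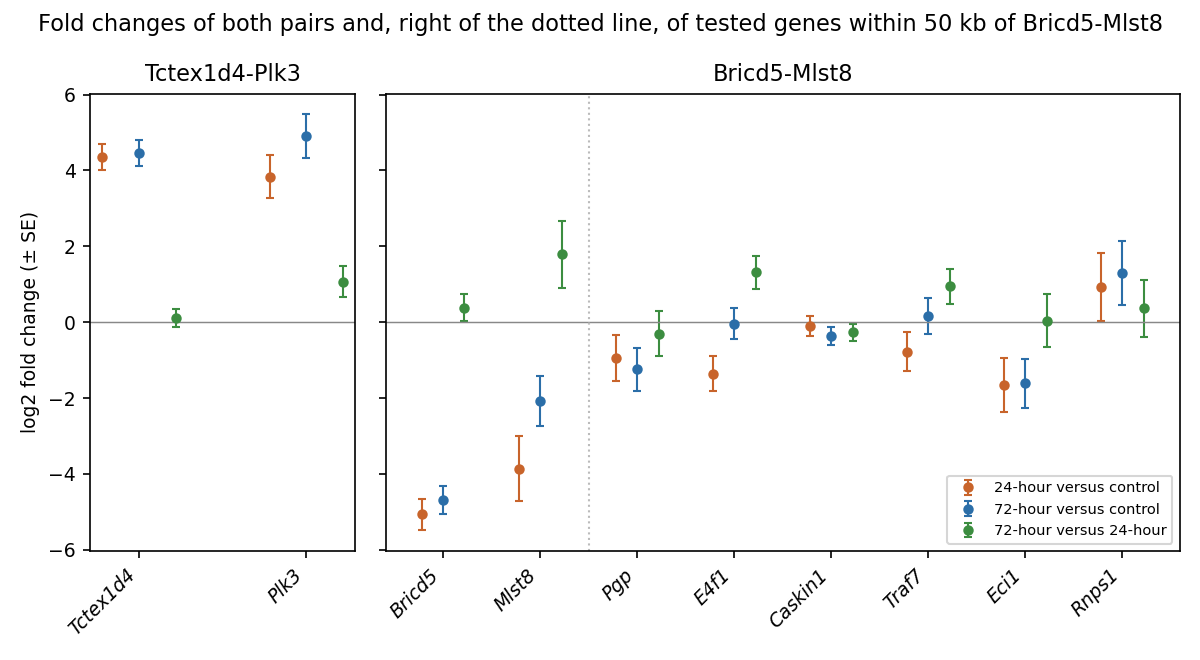
Log2 fold change with its SE (vertical axis) of Tctex1d4 and Plk3 (left) and of Bricd5 and Mlst8 (right), with the 6 tested genes within 50 kb of Bricd5-Mlst8 right of the dotted line, ordered by distance from the pair, for the 3 comparisons. These 6 genes lie between -1.65 and 1.31, while Bricd5 stands at -5.07 and -4.68 in the comparisons with the spleen.

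The pathways of the 4 proteins were followed through lists of other genes. Of all tested genes edgeR called 9.75% at 24 hours, 5.33% at 72 hours and 4.49% between the liver groups. The lists are short, and their counts of called genes were not tested against these shares. The table held 4 other polo-like kinases, and 2 of them were tested. Plk4, the kinase of centriole duplication, fell by 2.36 on the log2 scale at 24 hours (SE 0.57, edgeR adjusted p = 0.0102), and Plk2 rose by 3.21 at 72 hours (SE 0.61, edgeR adjusted p = 0.00192). Plk2 went from 2 to 5 reads per splenic library to 7 to 44 reads at 72 hours. Of the 13 genes of the stress and DNA damage response linked to Plk3, 9 were tested. At 24 hours 1 rose and 1 fell, with a median log2 fold change of 0.84 against -0.23 over all tested genes. At 72 hours 2 rose and none fell (median 0.32 against -0.02). DESeq2 called 4 and 2 of the 9 at these times, and limma-voom 2 and 3. Jun, which encodes a substrate of Plk3, rose by 2.17 at 24 hours (SE 0.42, edgeR adjusted p = 0.00182) and by 2.18 at 72 hours (SE 0.40, edgeR adjusted p = 0.00154). Gadd45b rose by 2.24 at 72 hours (SE 0.54, edgeR adjusted p = 0.0130). Cdc25a was the gene called lower at 24 hours, with 5 to 13 reads per splenic library and 0 in all 24-hour libraries.

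Of the 10 other genes of the mTOR complexes 7 were tested, and edgeR called 0 in each of the comparisons. In the comparisons with the spleen 1 gene had an unadjusted p below 0.05, and DESeq2 called 1 at 72 hours. Their median log2 fold change was -0.45 at 24 hours and 0.09 at 72 hours, against -0.23 and -0.02 over all tested genes. Rptor, the raptor subunit of the first complex, stood at 2.22 (SE 0.85, edgeR adjusted p = 0.0993) and 2.50 (SE 0.80, edgeR adjusted p = 0.0749), and Mtor itself at -1.30 (SE 0.96) and -0.43 (SE 0.84), on few reads. Of 20 regulators and targets of the first complex 19 were tested. Of these only Eif4ebp1, a translation repressor that the complex phosphorylates, was called, higher by 1.38 at 24 hours (SE 0.39, edgeR adjusted p = 0.0283). Of 16 genes of dynein light chains and cytoplasmic dynein 12 were tested and 0 were called by edgeR, DESeq2 or limma-voom. At 24 hours 5 of them had an unadjusted p below 0.05 in edgeR. Their median was -0.95 at 24 hours and -0.35 at 72 hours, against -0.23 and -0.02 over all tested genes. Of 10 other BRICHOS genes 9 were in the table and 3 were tested. Of these edgeR called 0, with 1 at an unadjusted p below 0.05 at 24 hours, where DESeq2 called 1. Itm2b, the most abundant of them, stood at 135 ± 24.6 CPM (SD, n = 3) in the spleen and -0.71 (SE 0.24, edgeR adjusted p = 0.0652) at 24 hours. Between the liver groups edgeR called 0 genes of these 6 lists. DESeq2 and limma-voom each called 2 of the 19 regulators and targets of the first mTOR complex there, where 5 had an unadjusted p below 0.05 in edgeR.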

How the data were processed

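Neutrophil RNA of 12 libraries in 3 groups was analysed. The submitters' processing notes name STAR 2.7.9a and GRCm38, and the authors counted reads per gene with HTSeq-count on libraries from a stranded kit. The deposited values are raw counts, 1 whole number per gene and library, neither normalized nor filtered. All columns matched a sample, and the 5 summary rows were left out of totals and tests. The row for reads outside genes, held 96.8% to 97.3% of uniquely aligned reads. Of 48709 genes, 48349 matched the GENCODE annotation of GRCm38 by identifier. The labels do not say that each library is a separate animal, so p-values measure the spread between these libraries. Replicates differed by more than sampling noise (chi-square per degree of freedom 2.15 to 27.7).

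Genes with more than 1 CPM in at least 3 libraries were kept and scaled by TMM, and 1 quasi-likelihood fit of edgeR 4.0.16 in R 4.3.3 covered all libraries, with Benjamini-Hochberg adjustment over 12488 genes. The script was tested on simulated data. Standard errors are those of the log2 fold change. Pair ratios were tested by two-sided exact permutation in scipy 1.17.1. Named were the members, the tested genes within 50 kb (some of which are not reported here), the 5 genes most like each member by Pearson's r over log2 CPM with a prior count of 2, and genes of 6 lists and of marker lists. Splenic granule genes fall under the marker lists. The members and lists were chosen with earlier results of these data known. Alternatives were DESeq2 size factors, upper-quartile scaling, library totals, no filter, filterByExpr, DESeq2 1.42.0, limma-voom (limma 3.58.1), fits of 2 groups, a replicate block, another pseudocount and leaving out libraries. Promoter windows came from RefSeq (GRCm38.p6). Proteins were not analysed here.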

Additional observations from a re-analysis of the deposited data

Results flagged for a closer look

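In 12 groups of liver libraries examined for a sample far from the others (4 genes and 2 ratios in 2 groups each), 1 was found, and chance gives about 1 in 20. It was Mlst8 at 24 hours, where replicate 4 stood at 2.92 CPM on 4 reads and the other 3 libraries at 0. With those at 0, any read in replicate 4 would raise this flag, so the rate of 1 in 20 does not apply to it. The log2 ratio of Tctex1d4 to Plk3 differed between the liver groups by -0.84 (two-sided exact permutation p = 0.0159), with all 5 72-hour libraries below all 4 24-hour libraries. The log2 ratio of Bricd5 to Mlst8 differed by -1.62 (two-sided exact permutation p = 0.0476), with 1 24-hour library among the 72-hour ones, and it rests on 0 to 8 Mlst8 reads per library.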

How the results depend on the processing

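In the comparisons with the spleen the 4 genes kept their direction under all 22 alternatives, with log2 fold changes of 3.75 to 4.54 (24 hours) and 4.29 to 4.60 (72 hours) for Tctex1d4, 3.24 to 4.48 and 4.23 to 5.55 for Plk3, -5.69 to -4.79 and -5.09 to -4.40 for Bricd5, and -7.53 to -3.44 and -2.37 to -1.77 for Mlst8. The value of -7.53 comes without 24-hour replicate 4, which leaves no Mlst8 read at 24 hours. Between the liver groups, Tctex1d4 turned to -0.088 without 24-hour replicate 1 and to -0.039 without 72-hour replicates 2 and 3, with its range over single libraries left out from -0.088 to 0.29. Plk3 was called with library totals (1.50, edgeR adjusted p = 0.0200), with no filter (1.07, edgeR adjusted p = 0.00503) and without 72-hour replicate 4, and ranged from 0.75 to 1.28 over single libraries left out. Mlst8 ranged from 1.36 to 5.45. Members called were thus 1 with library totals or no filter and 0 or 1 with a library left out. The cause was not tested. Genes called numbered 561, with 1409 under library totals, 951 by DESeq2, 197 without 72-hour replicates 2 and 3, and 182 (without 24-hour replicate 1) to 796 (without splenic replicate 3) over single libraries left out. Against the spleen, the 1218 genes called at 24 hours became 575 and 611 without splenic replicates 1 and 2 and 2945 with library totals, and the 666 called at 72 hours became 322 and 314 without those replicates and 287 without 72-hour replicates 2 and 3. The Tctex1d4 to Plk3 ratio difference was -0.97 to -0.67 over single libraries left out and -0.45 without 72-hour replicates 2 and 3. That of Bricd5 to Mlst8 was -2.11 to -1.33, -0.44 with a pseudocount of 2 and -1.78 without those libraries (exact permutation p = 0.114). Same-numbered libraries of different groups did not deviate together more than others (r from -0.12 to 0.13 over 10 pairs, 1 of them over 0.1). Other pairs ranged from -0.15 to 0.16, and in groups this small the check cannot decide whether the numbers pair the samples. With a replicate block 599 genes and 0 of the 4 members were called between the liver groups, and Mlst8 stood at -2.37 at 72 hours against the spleen. Mlst8, at 0 to 8 reads per liver library, is limited by depth.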
